A study of Caenorhabditis elegans with 12 samples.

Results

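The 6 genes described here encode the stress sensors of the endoplasmic reticulum (ER) of Caenorhabditis elegans and factors that act with or after them. They are ire-1, pek-1, atf-6, rtcb-1, xbp-1 and ckb-2, taken by name from the 46217 gene identifiers of the expression table, in which each name matched a single identifier. RNA was sequenced from whole worms on day 1 of adulthood, grown at 20 °C, with 3 samples of each of 4 strains. The strains were rde-1(ne219); cpl-1* (called the double strain below), cpl-1*, cpl-1WT and wild type, the last being the N2 laboratory strain.

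Both cpl-1* strains carry an integrated transgene for CPL-1*, a misfolding form of a cathepsin L-like protease that is retained in the ER and cleared by ER-associated degradation (ERAD). The transgene is driven by the nhx-2 promoter, which is active in the intestine, whereas the RNA came from the entire animal. The double strain carries in addition the ne219 allele of rde-1, the gene of the Argonaute protein that executes RNA interference (RNAi) against exogenous RNA. The genotype labels of the cpl-1* samples and the double strain name a different residue for the second substitution, a different fluorescent tag and, for the double strain alone, a pharyngeal mCherry marker. The source labels give both the same tag. The cpl-1WT worms carry the natively folded protease under the same promoter, and their values were not analysed here. Worms with rde-1(ne219) alone are not among the groups, so the allele was seen only together with CPL-1*.

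All values are FPKM (fragments normalised to the length of the transcript and to the number mapped), pooled by the authors over the samples of a strain. With 1 such value per gene and strain, these FPKM do not show the spread between replicates, no test was run on them, and the sequencing depth is unknown. Differences are given as log2 ratios of FPKM with 0.1 added to both values, and a gene was counted as higher or lower where the ratio passed 1.5-fold. The same counts over the 14890 identifiers with a mean of at least 1 FPKM over the strains serve as background, and all 6 genes pass that minimum. The cpl-1 gene, native and transgenic mRNA together, stood at 9749 FPKM in the double strain, 2920 FPKM in cpl-1* and 1377 FPKM in wild type. The rde-1 mRNA had 19.3 FPKM in the double strain, 28.0 FPKM in cpl-1* and 28.3 FPKM in wild type, and since ne219 changes an amino acid, this level does not check the genotype.

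The unfolded protein response of the ER (UPRER) matches the folding capacity of the ER to its load. Its sensors are transmembrane proteins that detect unfolded protein in the ER lumen. IRE-1 is a kinase and endoribonuclease that cuts an intron out of xbp-1 mRNA in the cytosol, the RNA ligase RTCB-1 joins the cut ends, and the spliced mRNA encodes the active bZIP transcription factor XBP-1. PEK-1, the worm orthologue of PERK, phosphorylates the translation initiation factor eIF2alpha and thereby lowers protein synthesis. ATF-6 is a bZIP factor held in the ER membrane, whose cytosolic part is released by proteolysis in mammals. The sixth gene, ckb-2, is no sensor: it encodes a choline kinase of the pathway to phosphatidylcholine, the main phospholipid of ER membranes. The gene annotation in the table assigns ckb-2 to the ER unfolded protein response, as it does ire-1, xbp-1, atf-6 and pek-1. For rtcb-1 the annotation gives the unconventional mRNA splicing of this response instead, a term that it shares with ire-1 alone.

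**Figure D1:**
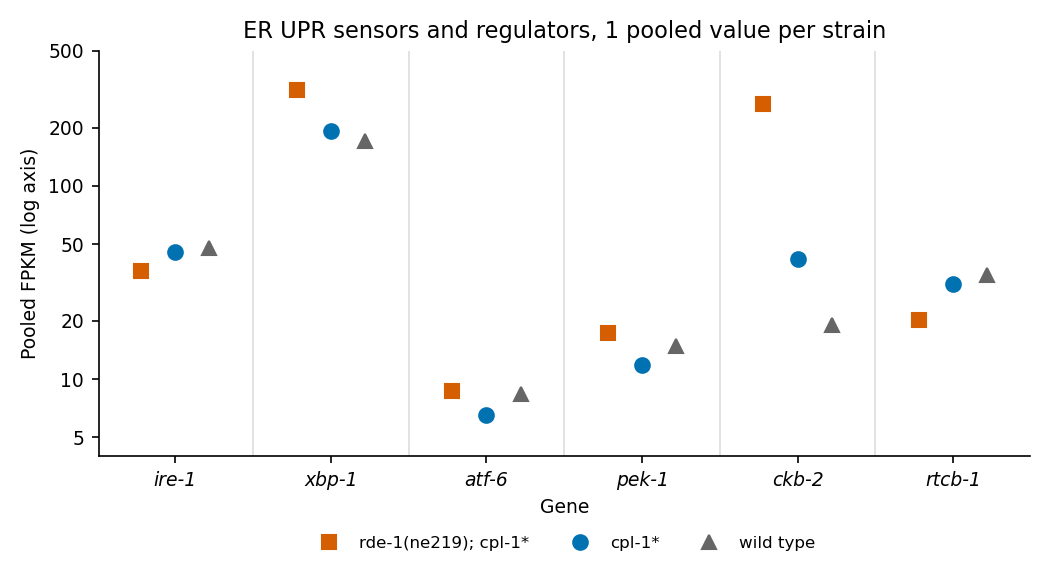
Pooled FPKM (log axis) of the 6 genes in rde-1(ne219); cpl-1* (squares), cpl-1* (circles) and wild type (triangles), with 1 value per strain and therefore no error bars. The ckb-2 values span 265.8 FPKM in the double strain to 19.1 FPKM in wild type, while the sensors ire-1, pek-1 and atf-6 stay within narrow ranges.

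FPKM values are per length and can be compared between genes within a strain. The highest of the 6 in every strain was xbp-1, and the lowest was atf-6, at 1/36.2 of the xbp-1 level in the double strain, 1/29.3 in cpl-1* and 1/20.5 in wild type. In wild type the order from high to low was xbp-1, ire-1, rtcb-1, ckb-2, pek-1 and atf-6. It differed between strains only in the place of ckb-2, which stood after xbp-1 in the double strain, after ire-1 in cpl-1* and after rtcb-1 in wild type. Of the FPKM sum of the 6 genes, ckb-2 held 40.1% in the double strain, 12.8% in cpl-1* and 6.46% in wild type. The plot of levels by strain shows this move of ckb-2 past the other genes.

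In cpl-1* against wild-type worms, 1 of the 6 genes, ckb-2, was more than 1.5-fold higher and 0 were lower. Over all 14890 genes 20.8% were higher and 5.81% were lower by this measure. The median log2 ratio of the 6 genes was -0.12, against -0.03 for all genes. In the double strain against cpl-1*, 2 of the 6 (ckb-2 and xbp-1) were higher and 1 (rtcb-1) was lower, where the shares of all genes were 36.4% and 26.5%. Here the median of the 6 was 0.47, against 0.09 for all genes. The double strain against wild type gave the same 2 genes higher and the same gene lower, beside 38.6% and 30.8% of all genes, with medians of 0.14 for the 6 and 0.05 for all genes. These shares of 2 and 1 of 6 are near those of all genes, so the count itself sets the group apart from other genes in none of the comparisons. The comparisons share strains, and the last one follows from the others.

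**Figure D2:**
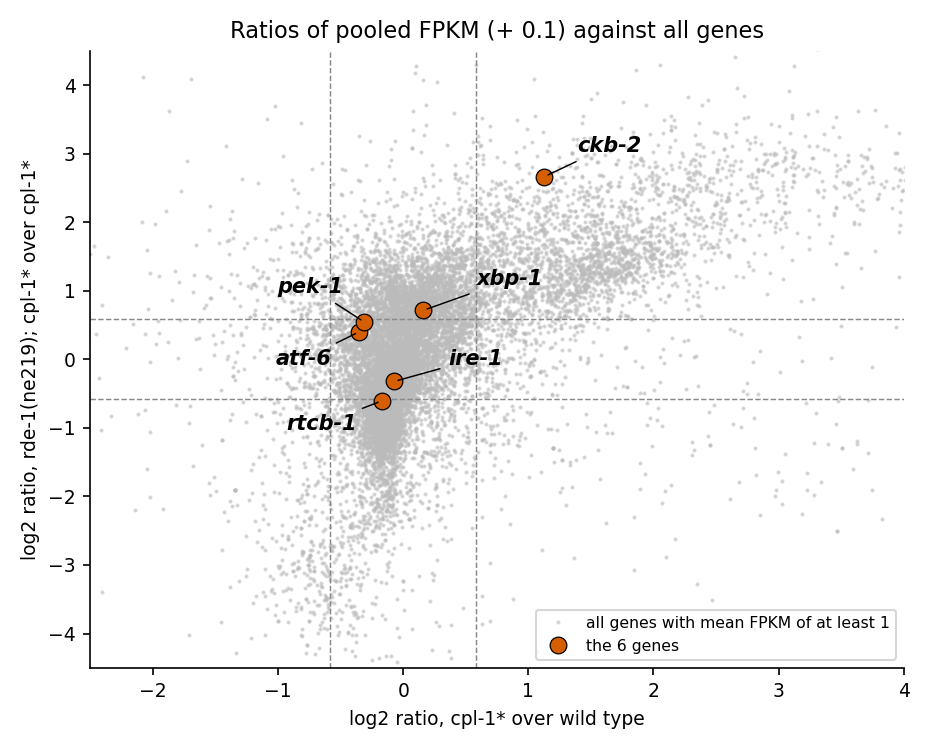
Log2 ratio of pooled FPKM in cpl-1* over wild type (x axis) and in rde-1(ne219); cpl-1* over cpl-1* (y axis), for all genes with a mean of at least 1 FPKM (grey) and the 6 genes (orange). Dashed lines mark 1.5-fold, 266 genes lie outside the window, and the cpl-1* value enters both axes. On the x axis ire-1 lies in the dense centre, atf-6 and pek-1 lie to its left at -0.35 and -0.31, and ckb-2 alone of the 6 is past both upper lines.

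The sensor gene ire-1 (WBGene00002147) lies on the minus strand of chromosome II, at 8112243-8124910 of WBcel235. The annotation gives it 2 transcripts with 12 distinct exons and 3401 bp of exon sequence. It had 36.1 FPKM in the double strain, 45.2 FPKM in cpl-1* and 47.6 FPKM in wild type. It was thus lowest in the double strain and nearly level between the others. The log2 ratio was -0.32 for the double strain over cpl-1* and -0.07 for cpl-1* over wild type, and 63.9% and 56.0% of all genes had a higher ratio in these comparisons. The gene unc-105, on the opposite strand, overlaps ire-1 and shares its locus in the table. Its own level was 4.27 FPKM in the double strain, 2.1 FPKM in cpl-1* and 1.66 FPKM in wild type, so it ran in the other direction and at a small part of the ire-1 level. The sources used here do not say whether the counting used the strand.

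The PERK orthologue pek-1 (WBGene00003970) is on the minus strand of chromosome X, at 11410176-11414887, with 1 transcript of 12 exons and 3709 bp. It had 17.4 FPKM in the double strain, 11.9 FPKM in cpl-1* and 14.8 FPKM in wild type. For atf-6 (WBGene00000222), on the plus strand of chromosome X at 12480948-12484904 with 10 exons and 2402 bp, the values were 8.68 FPKM in the double strain, 6.54 FPKM in cpl-1* and 8.38 FPKM in wild type. Both genes were lowest in cpl-1*. Both stood in the double strain near or above their wild-type level. Over wild type, the log2 ratio in cpl-1* was -0.31 for pek-1 and -0.35 for atf-6, and 86.1% and 88.1% of all genes had a higher ratio. In the double strain over cpl-1* the ratios were 0.54 for pek-1 and 0.40 for atf-6, which 37.6% and 41.5% of all genes exceeded. None of these values passes 1.5-fold. The pair lay 0.15 apart over both log2 ratios together, the shortest distance between any of the 6 genes. The ratio of pek-1 to atf-6 FPKM was 2.0 in the double strain, 1.82 in cpl-1* and 1.76 in wild type.

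The RNA ligase gene rtcb-1 (WBGene00008877) is on the minus strand of chromosome I, at 9390833-9393095, with 2 transcripts, 8 distinct exons and 1640 bp of exon sequence. Its level was 20.3 FPKM in the double strain, 30.9 FPKM in cpl-1* and 34.8 FPKM in wild type. The double strain had the lowest value, past 1.5-fold from both other strains, at 0.657-fold of cpl-1* and 0.584-fold of wild type. The log2 ratio over cpl-1* was -0.61, and 74.4% of all genes had a higher one. Besides the splicing of xbp-1, RTCB-1 is known for joining the exons of tRNAs. Among the 6 genes the closest to it in pattern was ire-1, at a distance of 0.30. Of the genes with a symbol and a mean of at least 5 FPKM, however, 1020 lay within 0.25 of rtcb-1.

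The transcription factor gene xbp-1 (WBGene00006959) is on the plus strand of chromosome III, at 4193809-4195358, with 2 transcripts, 6 distinct exons and 1446 bp of exon sequence. It had 314 FPKM in the double strain, 191 FPKM in cpl-1* and 171 FPKM in wild type. The double strain was 1.64-fold higher than cpl-1* and 1.83-fold higher than wild type. By contrast, cpl-1* and wild type differed by 1.12-fold. In log2 terms these are 0.71, 0.87 and 0.16, and 32.6%, 32.6% and 35.1% of all genes had a higher ratio. Only 3.01% of all genes had a higher level than xbp-1 in the double strain, against 5.66% in cpl-1* and 6.38% in wild type. Relative to cpl-1*, the substrate mRNA passed 1.5-fold in the double strain, while that of its nuclease ire-1 (log2 ratio -0.32) stayed between the limits. The ratio of xbp-1 to ire-1 FPKM was 8.70 in the double strain, 4.24 in cpl-1* and 3.60 in wild type. A value per gene sums the spliced and unspliced forms of xbp-1, so it does not show how much of the mRNA had been spliced.

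The choline kinase gene ckb-2 (WBGene00000512) is on the plus strand of chromosome III, at 4367949-4370160, with 1 transcript of 8 exons and 1198 bp. It had 265.8 FPKM in the double strain, 41.9 FPKM in cpl-1* and 19.1 FPKM in wild type. Each step between strains was large. The double strain was 6.34-fold higher than cpl-1* and 13.8-fold higher than wild type, and cpl-1* was 2.18-fold higher than wild type. On the log2 scale these are 2.66, 3.79 and 1.13. A higher ratio was found in 426 genes (2.86%) for the double strain over cpl-1*, in 890 genes (5.98%) for the double strain over wild type, and in 2109 genes (14.2%) for cpl-1* over wild type. In wild type 42.7% of all genes had a higher level than ckb-2, and in the double strain 3.59%.

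The ckb-2 gene lies between its paralogues ckb-1, 479 bp upstream, and ckb-3, 724 bp downstream, all on the plus strand. The rest of this cluster stayed low. For ckb-1 the level was 8.05 FPKM in the double strain, 3.70 FPKM in cpl-1* and 2.89 FPKM in wild type, and for ckb-3 it was 0.122, 0.175 and 0.030 FPKM in the same order, under the minimum of 1 FPKM. Paralogues can share reads, and srpr-1.2, which overlaps ckb-2 on the same strand and shares its locus in the table, had 2.50 FPKM in the double strain, 0.383 FPKM in cpl-1* and 0.202 FPKM in wild type. These values are small beside those of ckb-2. The remaining choline kinase genes of the list were mixed. More than 1.5-fold higher in the double strain over cpl-1* were ckb-4 (log2 ratio 1.2), ckb-1 (1.10) and cka-2 (0.85), whereas ckc-1 (-0.43) and cka-1 (-0.41) were between the limits. In cpl-1* over wild type none of the 5 passed 1.5-fold, and their log2 ratios ran from -0.06 for cka-1 to 0.36 for ckc-1.

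The list of choline kinases and phosphatidylcholine synthesis genes has 12 members beside ckb-2, of which 11 pass the minimum. Of the 11, 5 were higher and 1 was lower in the double strain over cpl-1*, beside 36.4% and 26.5% of all genes. Their median log2 ratio was 0.36. The 2 others among the higher genes were pmt-1, a phosphoethanolamine methyltransferase (257 FPKM in the double strain, 169.8 FPKM in cpl-1*), and the S-adenosylmethionine synthetase gene sams-1 (577 FPKM in the double strain, 324 FPKM in cpl-1*), whose identifier also carries the name of ucr-2.1. The lower gene was cept-2, of the family that makes phosphatidylcholine from CDP-choline, with 33.3 FPKM in the double strain and 68.7 FPKM in cpl-1*. In cpl-1* over wild type, 0 were higher and 1, pmt-1 (169.8 FPKM in cpl-1*, 254.9 FPKM in wild type), was lower. The shares of all genes were 20.8% and 5.81%. The median of the list was 0.09, so ckb-2 at 1.13 lay above every other gene of the list that passed the minimum.

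The ER chaperones and folding enzymes, most of which are known targets of the sensors, were compared with the sensors themselves. Of these, 12 of 14 were higher in the double strain over cpl-1* and 0 were lower, beside 36.4% and 26.5% of all genes. Their median log2 ratio was 1.26. The highest were hsp-4, a worm orthologue of the ER chaperone BiP, with 1337 FPKM in the double strain and 291 FPKM in cpl-1* (log2 ratio 2.2), and the protein disulfide isomerase gene pdi-6 with 870.0 FPKM in the double strain and 232 FPKM in cpl-1* (1.91). The members between the limits were dnj-20 (0.45) and cnx-1, the calnexin gene (-0.01). The ratio of ckb-2 exceeded that of each of the 14 genes in this comparison and also in cpl-1* over wild type, and that of xbp-1 was below the list's median. In cpl-1* over wild type 1 of 14, pdi-6 (0.67), was higher and 0 were lower, beside 20.8% and 5.81% of all genes. The median of the 14 was 0.26.

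ERAD factors and the genes around PEK-1 were compared in the same way. Of the 14 ERAD genes found, 1 was higher and 3 were lower in the double strain over cpl-1*, beside 36.4% and 26.5% of all genes, with a median log2 ratio of -0.29. The higher gene was cup-2, a derlin (0.63), and the lower genes were hrdl-1, a relative of the ubiquitin ligase Hrd1 (-0.84), the ubiquitin-conjugating enzyme gene ubc-7 (-0.76) and cdc-48.1, a gene of the AAA ATPase that extracts ERAD substrates (-0.65). Of these 14, 0 passed 1.5-fold in either direction in cpl-1* over wild type, with a median of -0.08. The shares of all genes there were 20.8% higher and 5.81% lower. Among eif-2alpha, eif-2gamma, gcn-1, gcn-2 and atf-4, which encode the substrate of PEK-1, a partner subunit, a parallel eIF2 kinase with its activator, and a transcription factor downstream of eIF2, 0 of 5 passed 1.5-fold in either comparison. Over all genes the shares were 36.4% higher and 26.5% lower in the double strain over cpl-1*, and 20.8% and 5.81% in cpl-1* over wild type. The medians of the 5 genes were -0.21 for the double strain over cpl-1* and -0.01 for cpl-1* over wild type.

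**Figure D3:**
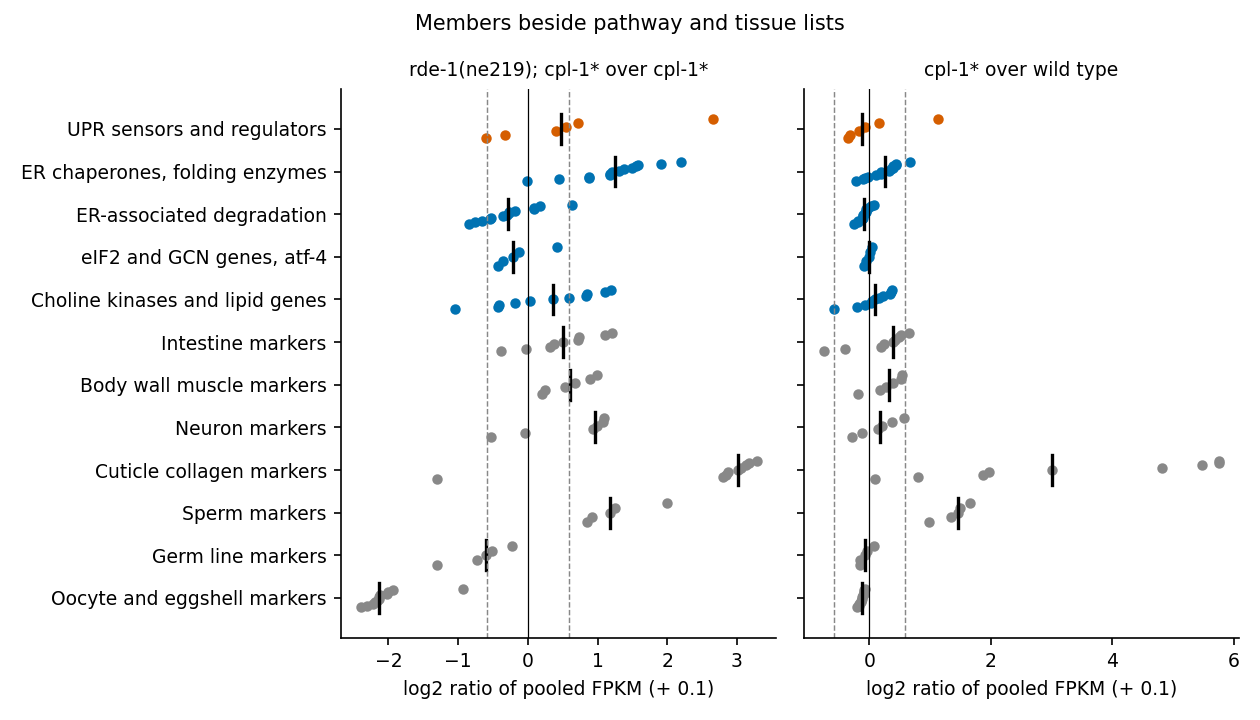
Log2 ratio of pooled FPKM for each gene with a mean of at least 1 FPKM in the 6-gene group (orange), in pathway lists (blue) and in tissue marker lists (grey), for rde-1(ne219); cpl-1* over cpl-1* (left) and cpl-1* over wild type (right). Black bars are list medians and dashed lines mark 1.5-fold. The ER chaperones (median 1.26 on the left) lie to the right of the ERAD genes (-0.29), and the oocyte markers lie far to the left (-2.14).

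Tissue markers also differed between the double strain and cpl-1*, and their part in the values of the 6 genes was not tested. Over all genes 36.4% were higher and 26.5% were lower in this comparison, and the counts below stand beside these shares. All 12 oocyte and eggshell markers were lower in the double strain than in cpl-1*, with a median log2 ratio of -2.14, and their summed level was 1396 FPKM in the double strain, 5926 FPKM in cpl-1* and 6427 FPKM in wild type. The 5 germ line markers, of which 3 were lower, had a median of -0.61 and ran from -1.31 to -0.23. The medians of the somatic lists went the other way. The 9 intestine markers had a median of 0.50 and ran from -0.39 to 1.21. The 6 body wall muscle markers had a median of 0.60 and ran from 0.21 to 0.99. For the 6 neuron markers the median was 0.97 and the highest value 1.10, but unc-119 (-0.53) and snb-1 (-0.03) lay below 0. The values of xbp-1 (0.71), pek-1 (0.54), atf-6 (0.40) and ire-1 (-0.32) lie within the range of the intestine markers, the last of them only because of mtl-2 (-0.39), since the next marker is vha-6 at -0.03. That of rtcb-1 lies below this range and that of ckb-2 (2.66) above it. Of the cuticle collagen markers, 8 of 9 were higher, with a median of 3.01, and the same 8 had a higher ratio than ckb-2. The remaining marker, col-19, was lower, with 745 FPKM in the double strain and 1837 FPKM in cpl-1* (log2 ratio -1.30). Of the 5 sperm markers that pass the minimum all were higher, with a median of 1.17. Among them fer-1 passes only through the double strain, with 2.80 FPKM there, 0.627 FPKM in cpl-1* and 0.159 FPKM in wild type. In RNA of whole worms, fewer cells of a tissue and less RNA of a gene per cell cannot be told apart.

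Between cpl-1* and wild type the oocyte markers differed by a median log2 ratio of -0.12 and the germ line markers by -0.07, with 0 genes past 1.5-fold in both lists. Over all genes 20.8% were higher and 5.81% were lower in this comparison. The medians of the intestine, muscle and neuron markers were 0.39, 0.33 and 0.18. Of the 9 cuticle collagen markers 8 were higher, with a median of 3.0, as were all 5 sperm markers, with a median of 1.47. The collagen genes rol-6, sqt-1, bli-1 and bli-2 had only 0.288 to 1.14 FPKM in wild type, so their ratios over it rest on low values. In the double strain they had 75.8 to 460 FPKM. The collagen markers summed to 2130 FPKM in cpl-1* and to 1760 FPKM in wild type. Most of both sums was col-19, the marker that was not higher, with 1837 FPKM in cpl-1* and 1714 FPKM in wild type (log2 ratio 0.10). The ratio of ckb-2 in this comparison (1.13) was above those of all 9 intestine markers, whose highest was 0.66, but below those of 7 of the 9 cuticle collagen markers and 4 of the 5 sperm markers.

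Set against the median of the 9 intestine markers, a setting chosen after the values had been seen, the log2 ratio in the double strain over cpl-1* was 2.16 for ckb-2, 0.21 for xbp-1, 0.04 for pek-1, -0.10 for atf-6, -0.83 for ire-1 and -1.11 for rtcb-1. On this scale xbp-1 no longer passes 1.5-fold and ire-1 does. For cpl-1* over wild type the value of ckb-2 was 0.73, and atf-6 (-0.74) and pek-1 (-0.70) passed 1.5-fold downwards. The split of all genes turned with this scaling, and in both comparisons of the double strain also with a minimum of 5 FPKM. In the double strain over cpl-1*, 3281 were higher and 6594 were lower, against 5416 and 3950 without it. In cpl-1* over wild type 3642 genes were lower with it and 865 without it, and in the double strain over wild type 3398 were higher and 8150 lower with it, against 5744 and 4590.

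The table annotates 59 identifiers with the ER unfolded protein response, and 50 of them pass the minimum, ckb-2, ire-1, xbp-1, atf-6 and pek-1 among them. This set was taken up after the values had been seen. Its gene abu-4 passes the minimum only through the double strain, with 2.84 FPKM there, 0.456 FPKM in cpl-1* and 0.016 FPKM in wild type. Among the 50, 35 were higher and 5 were lower in the double strain over cpl-1*, beside 36.4% and 26.5% of all genes. The median log2 ratio of the 50 was 1.52. By rank from the top ckb-2 was 6, xbp-1 35, pek-1 36, atf-6 38 and ire-1 45. The count was 24 higher and 0 lower in cpl-1* over wild type, beside 20.8% and 5.81% of all genes. In that comparison the median of the 50 was 0.51, and ckb-2 ranked 18. The sensors and their effector thus stood in the lower part of the set. There xbp-1 ranked 34, ire-1 40, pek-1 48 and atf-6 49 of the 50. Reads may be shared among the 9 abu and pqn genes of the set, which are alike in sequence. Among the other 41, the median was 1.21 in the double strain over cpl-1* and 0.40 in cpl-1* over wild type, and ckb-2 ranked 6 and 9.

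**Figure D4:**
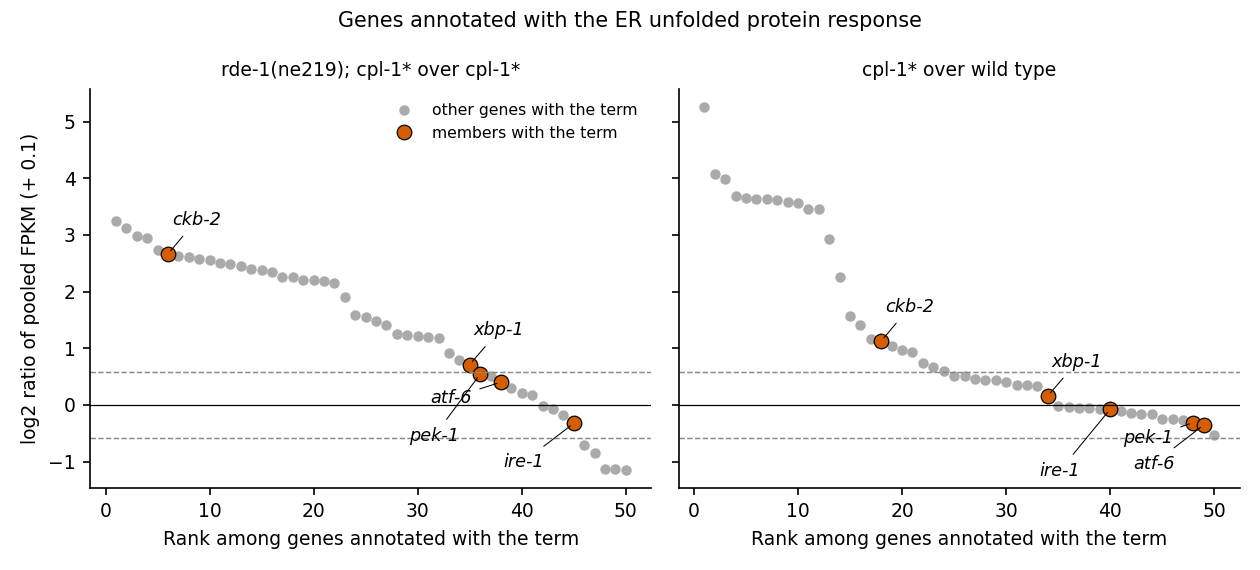
Log2 ratio of pooled FPKM of the 50 genes annotated with the ER unfolded protein response, ranked from high to low, for rde-1(ne219); cpl-1* over cpl-1* (left) and cpl-1* over wild type (right). Orange points are ire-1, xbp-1, atf-6, pek-1 and ckb-2, and dashed lines mark 1.5-fold. On the left ckb-2 is at rank 6 and the sensors are at ranks 36 to 45, and on the right atf-6 and pek-1 are at ranks 49 and 48.

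To find genes of like pattern, the distance was taken over 2 log2 ratios, cpl-1* over wild type and the double strain over cpl-1*, which rest on 3 pooled values and share that of cpl-1*. Genes with a mean of at least 5 FPKM and a gene symbol were searched. The nearest to ckb-2 were bus-19 (distance 0.03), sid-2 (0.11) and nlp-30 (0.13), and only 4 genes lay within 0.25. Of these sid-2, which encodes an intestinal membrane protein for the uptake of double-stranded RNA, had 118 FPKM in the double strain, 19.2 FPKM in cpl-1* and 8.16 FPKM in wild type. The neuropeptide-like gene nlp-30, of a family of epidermal antimicrobial peptides, had 36.5 FPKM in the double strain, 5.47 FPKM in cpl-1* and 2.67 FPKM in wild type. For bus-19 the levels were 31.4 FPKM in the double strain, 4.97 FPKM in cpl-1* and 2.25 FPKM in wild type. Both bus-19 and nlp-30 reached the mean of 5 FPKM only through their level in the double strain. The patterns of the other members were common. Within 0.25 there were 1020 genes for rtcb-1, 1002 for ire-1, 283 for xbp-1, 137 for pek-1 and 136 for atf-6. The nearest genes were pho-5, hrp-2 and the identifier named idi-1,vms-1 for rtcb-1, let-716, mma-1 and hum-1 for ire-1, nlp-1, snt-4 and pde-6 for xbp-1, tli-1, tlp-1 and nhr-109 for pek-1, and acdh-10, ins-28 and avr-15 for atf-6. All of these lay within 0.05 of their gene.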

How the data were processed

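Per the labels, total RNA was isolated from age-synchronized whole worms with Trizol. The authors mapped the reads with HISAT2 2.1.0 to the Ensembl release 91 transcriptome, assembled transcripts with StringTie 1.3.4d and quantified them with Cufflinks (Cuffdiff 2.2.1, with build WBcel235, per the submitters' processing notes). The deposited table holds FPKM pooled by the authors over the samples of each strain, for 3 strains in 3 comparisons, with 46218 rows each. The value of the double strain was identical in both comparisons that list it for all 46217 identifiers, and 1 identifier listed more than once was used by its first row. The columns with the authors' fold changes, test statistics, P values and q values were not used. The planned tests on values per sample therefore could not be run.

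Log2 ratios were computed with a pseudocount of 0.1 FPKM. Identifiers with a mean of at least 1 FPKM over the 3 strains were counted past 1.5-fold, and 4016 of the 14890 share a locus with another. Of 109 symbols in the gene lists, 104 were found, 6 of them through their gene ID, while edem-1, edem-2, edem-3, iftb-1 and ppp-1 did not match. Genes named are the 6 members, the choline kinases, the genes past 1.5-fold in each pathway list up to 2 highest and 2 lowest, the 3 nearest genes per member, cpl-1 and rde-1. The others named were chosen after their values were seen. The members and lists were chosen with earlier results of these data known. Coordinates and exons come from the Ensembl release 115 annotation of WBcel235, in which 46042 identifiers were found, each overlapping its locus in the table. No sequence is printed. Computations used Python 3.11.15 (pandas 2.3.3, with numpy 2.4.6), plots were drawn with matplotlib 3.10.9, and the counting was tested on simulated data. Alternatives were no pseudocount or 1 FPKM, no minimum or 5 FPKM, thresholds of 5/4-fold and 2-fold, centring on the median of all genes, 1 identifier per locus and, added later, centring on the intestine markers.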

Additional observations from a re-analysis of the deposited data

How the results depend on the processing

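The 18 log2 ratios of the 6 genes kept their direction and their side of 1.5-fold without a pseudocount, with one of 1 FPKM, without a minimum, with a minimum of 5 FPKM, relative to the median of all genes and, for the 15 that remain, with 1 identifier per locus, where ire-1 drops out because unc-105 is listed first. With a threshold of 5/4-fold, 1 of the 6 genes was lower in cpl-1* over wild type, the double strain over cpl-1* had 4 higher and 2 lower (whose median of 0.47 then passes), and 2 were lower in the double strain over wild type. At that threshold 43.7% of all genes were higher and 36.2% lower in the double strain over cpl-1*, 39.1% were lower in the double strain over wild type, and 13.3% were lower in cpl-1* over wild type. With a threshold of 2-fold, 1 gene was higher and 0 were lower in the double strain over cpl-1* and likewise over wild type. The shares of all genes at 2-fold were 24.2% higher and 13.8% lower over cpl-1*, and 29.7% and 17.8% over wild type. Relative to the intestine markers, 2 genes were lower in cpl-1* over wild type, beside 3642 of all 14890 genes. In the double strain over cpl-1*, 1 was higher and 2 were lower, beside 3281 and 6594 of all genes. In the double strain over wild type, 1 was higher and 4 were lower, beside 3398 and 8150 of all genes. There the median of the 6 turned to -0.70, atf-6 to -0.79 and pek-1 to -0.61. The shift in the intestine markers (0.39, 0.50 and 0.84 in the 3 comparisons) is subtracted from each ratio by construction.

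Over all genes, 1411 were lower in cpl-1* over wild type without a minimum. With a minimum of 5 FPKM, which leaves fewer genes, the cpl-1* over wild type counts were 1541 higher and 381 lower, the double strain over cpl-1* had 2825 higher and 3292 lower, and the double strain over wild type had 3024 higher and 3889 lower, so that more genes were lower than higher in both. With 5/4-fold 1978 were lower in cpl-1* over wild type. At 2-fold 293 were lower in cpl-1* over wild type, the double strain over cpl-1* had 3598 higher and 2050 lower, and 2654 were lower over wild type. Relative to the intestine markers 3642 were lower in cpl-1* over wild type, 3281 were higher and 6594 lower in the double strain over cpl-1*, and 3398 were higher and 8150 lower over wild type.

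No paired analysis was possible because the table holds 1 pooled value per strain and no replicate numbers. For the same reason no replicate was left out. The spread between replicates and the counting error are unknown for every value.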
